A study of Arabidopsis thaliana with 16 samples.

Results

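Binding of the heat shock factor HSFA1b was examined at 6 Arabidopsis genes that encode heat transcription regulators. These were MBF1A (AT2G42680), MBF1B (AT3G58680), MBF1C (AT3G24500), DREB2A (AT5G05410), DREB2B (AT3G11020) and DREB2C (AT2G40340), out of 27444 protein-coding genes on the 5 nuclear chromosomes. The genes were chosen by name, but with earlier results of these data known, so their counts are not those of an unbiased choice. Every deposited ChIP-seq peak inside the gene or within 1 kb of it was taken as a peak of that gene. Binding was mapped by ChIP-seq (immunoprecipitation of chromatin, then sequencing) in leaves of 5-week-old Col-0 plants, in 16 samples that form 8 groups of 2. NP:HSFA1b plants carry a genomic copy of HSFA1b under its native promoter, fused to eYFP and precipitated with an anti-GFP antibody, and are a single transgenic line. In 35S:HSFA1b plants the viral 35S promoter drives an RFP-tagged copy, precipitated with an anti-RFP antibody. The endogenous HSFA1b gene was retained in both kinds of plants. Controls were precipitations with the same antibody, and the study used wild-type Col-0 plants as controls for NP:HSFA1b. Plants without stress (NS) stayed at 23 °C with a relative humidity of 60%, and those under heat stress (HS) had 30 min at 37 °C with a relative humidity of 86%.

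MBF1 proteins are coactivators that bridge DNA-bound activators to the TATA-binding protein. Of the Arabidopsis family, MBF1C is the heat-inducible member and is needed for thermotolerance, while MBF1A and MBF1B are regarded as the more constitutive members. DREB2 proteins are transcription factors with an AP2 DNA-binding domain, which recognise the dehydration-responsive element (DRE). DREB2A is rapidly induced by heat and by drought, and its protein is kept unstable in unstressed cells. HSFA1 factors act early in the heat response and bind heat shock elements (HSEs), which are alternating GAA and TTC repeats.

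The data are 4 peak lists, named NP or 35S for the construct and NS or HS for the condition, each called by the authors from 2 pooled treatment libraries. Each peak therefore has 1 value per condition, no replicate error can be given, and no difference below was tested across samples. Treatment pools held 2438702 (NP HS) to 19579327 (35S NS) fragments and control pools 1139036 to 12760222. Peaks enriched 2-fold or more at a q-value of at most 0.05 formed the main set of a list, which held 893 (NS) and 1219 (HS) peaks in NP:HSFA1b plants, against 3508 (NS) and 1408 (HS) in 35S:HSFA1b plants. Fold enrichment is the ratio of the pileup (number of fragments over the summit) to a background from the controls. This background often sat at the lowest value of its list and was then not a local one. In the 35S lists the lowest and the median background were alike, at 92.3 (NS) and 46.5 (HS). At such peaks fold enrichment follows the pileup alone. The deposited 35S peaks were so many and so wide that they covered 43.5% (NS) and 35.9% (HS) of the chromosomes, against 0.408% and 0.421% for the NP lists. The 35S NS call used 4 control libraries, of which 2 were also the controls of the 35S HS call, so that these lists are not independent.

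In NP:HSFA1b plants, MBF1C and DREB2A were bound under both conditions and DREB2C was bound under HS alone. Under NS, 2 of the 6 genes had a main-set peak, where 4.19% of all protein-coding genes had one. Under HS, 3 of the 6 had one, against 5.69% of all genes. Counting every deposited peak left the members at 2 and 3, beside 4.41% and 5.71% of all genes. Both conditions together were shared by 2 members (MBF1C and DREB2A) and by 2.04% of all genes. HS alone held 1 member (DREB2C) and 3.65% of all genes, and NS alone held 0 members and 2.15% of all genes. MBF1A, MBF1B and DREB2B had no NP peak in either condition.

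In 35S:HSFA1b plants the share of all genes with a peak was far higher, and the members' counts are read against it. Main-set peaks lay at 2 of the 6 genes under NS (MBF1C and DREB2A), where 38.7% of all genes had one. Under HS 1 of the 6 (DREB2B) had a main-set peak, against 19.7% of all genes. With every deposited peak counted, all 6 members had a 35S NS peak where 75.1% of genes had one, and 2 members (MBF1C and DREB2B) had a 35S HS peak where 52.1% of genes had one.

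**Figure D1:**
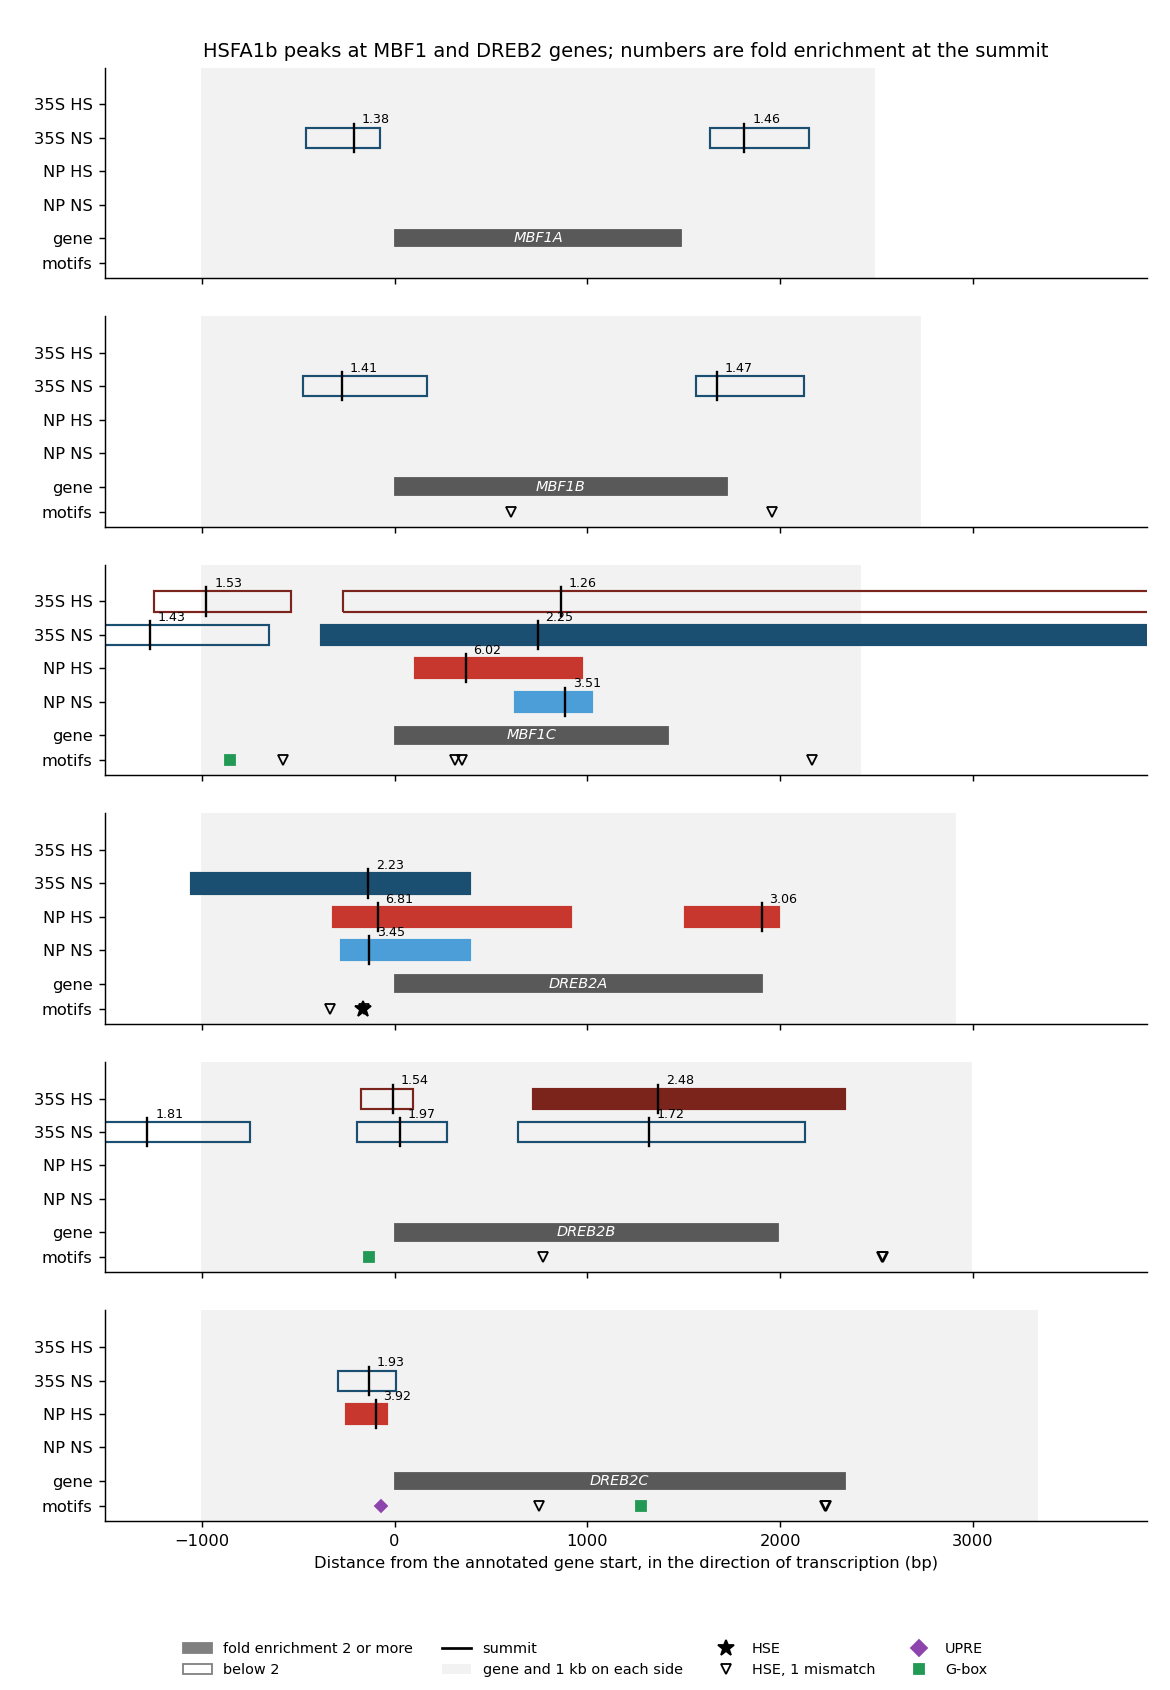
Peaks of the 4 lists at each gene, drawn to scale against the distance in bp from the annotated gene start, with filled boxes for a fold enrichment of 2 or more, open boxes below 2, a tick at each summit with its fold enrichment beside it, and grey shading for the gene and 1 kb on each side. The NP boxes occur at MBF1C, DREB2A and DREB2C only, and the 35S boxes at MBF1C run past the edge of the map.

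In the DREB2A promoter 3 of the 4 lists placed a summit, and it held the single exact HSE found among the 6 genes. DREB2A lies on the forward strand of chromosome 5 at chr5:1602205-1604112 (TAIR10). The promoter stretch from 182 to 37 bp before the gene start (chr5:1602023-1602168, forward strand, outside annotated UTRs) is shown because it contains all 3 summits, with the HSE in capitals.
DREB2A summits: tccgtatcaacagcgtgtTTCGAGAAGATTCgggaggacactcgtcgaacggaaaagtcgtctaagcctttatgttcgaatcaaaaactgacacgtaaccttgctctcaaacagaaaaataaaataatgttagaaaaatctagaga
The capitals are 3 repeats, TTC, GAA and TTC, each set 2 bases apart. The HSE was searched as GAANNTTCNNGAA and TTCNNGAANNTTC, which covers both strands. Of all protein-coding genes, 132 (0.481%) hold such an element between 250 bp before and 50 bp after the start, and 1.72% hold one in the 1 kb upstream. Its centre lay 26 bp from the NP NS summit, 22 bp from the 35S NS summit and 71 bp from the NP HS summit.

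Under NS the NP peak at DREB2A was 666 bp wide (chr5:1601929-1602594), with its summit 132 bp before the gene start, a pileup of 58 and a background of 16.1. Its fold enrichment was 3.45, a −log10 q of 12.4, and ranked 273 of the 893 main-set peaks. Under HS the peak at the same place was 1236 bp wide (chr5:1601887-1603122), with its summit 87 bp before the start, a pileup of 36 over a background of 4.43 and a −log10 q of 17.5. The HS fold enrichment was 6.81, which ranked 217 of 1219. The NS and HS summits were 45 bp apart, and the whole NS peak lay inside the HS peak.

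A second NP HS peak lay at the far end of DREB2A, where no NS peak was listed. It was 491 bp wide (chr5:1603711-1604201), with a summit 1904 bp after the start in the 3′ UTR, a fold enrichment of 3.06 and a −log10 q of 4.20. The gene AT5G05420 overlaps DREB2A here on the opposite strand and the summit is inside both, so the peak cannot be assigned to either one. Of main-set NP HS peaks 10.7% had a lower fold enrichment, which made it the weakest of the 4 NP HS peaks at these genes.

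In 35S:HSFA1b plants the NS list had 1 peak at DREB2A, 1450 bp wide, with a summit 136 bp before the start. That summit was 4 bp from the NP NS summit. Its pileup was 207, its fold enrichment 2.23 and its −log10 q 22.3, and 41.1% of main-set 35S NS peaks were lower. Under HS no 35S peak was listed at DREB2A, and the nearest deposited one was 9958 bp away. The DREB2A promoter was thus listed in every condition but 35S HS.

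MBF1C differed from DREB2A in that its NS and HS summits lay in different parts of the gene. MBF1C is on the forward strand of chromosome 3 at chr3:8918267-8919683 and has annotated transcripts that start at 8918267 and 8918679. Under NS the NP peak was 401 bp wide (chr3:8918893-8919293), and its summit was in the coding sequence, 886 bp after the gene start. The summit also lies inside the antisense RNA gene AT3G04685 (chr3:8919082-8919257, reverse strand), whose start was 104 bp away and nearer than any other start. ChIP-seq peaks carry no strand, so that binding at the coding sequence and at the antisense gene cannot be told apart.

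Under HS the NP peak at MBF1C was 866 bp wide (chr3:8918375-8919240), with a summit 369 bp after the gene start. That position is 43 bp before the start of the shorter transcript, 119 bp before the coding sequence and in the 5′ UTR of the longer transcript. The NS and HS summits were 517 bp apart, while 348 bp of the peaks overlapped. The nearest annotated gene start to the HS summit was that of MSH7, a DNA mismatch repair gene that runs the opposite way, 348 bp from the summit.

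The NS pileup at MBF1C was 41 over a background of 11.0, a fold enrichment of 3.51, with a −log10 q of 8.92. The HS pileup was 28 over a background of 3.82, a fold enrichment of 6.02, with a −log10 q of 12.3. Among main-set peaks 70.2% were lower under NS and 75.4% under HS, so that the peak held a like place in both lists.

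No exact HSE was present at MBF1C. Near the HS summit were 2 elements with 1 mismatch to the 3-repeat HSE, and they are shown with 8 bases on each side because both lay under the HS peak and neither under the NS peak.
MBF1C element 1: atctctaaGAACGTTCCAGAGacgaaaat
MBF1C element 2: agatgatcGAATTCTCCAGAAaccaatct
These are chr3:8918572-8918600 and chr3:8918609-8918637 on the forward strand, with the 3 repeats and their spacers in capitals. The centre of the first was 50 bp and of the second 13 bp from the HS summit. An element with up to 1 mismatch is common, being found in 10.2% of all promoters from 250 bp before to 50 bp after the start and within 50 bp of 19.5% of main-set NP HS summits. At the NS summit only a 2-repeat element was within 50 bp, which held for 13.1% of main-set NP NS summits.

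In the 35S lists MBF1C lay within a stretch of dense, wide peaks. Within 100 kb of the gene, peaks covered 69.7% of the sequence in 35S NS and 70.4% in 35S HS. At the other 5 genes the same share was 5.92% to 19.2% under NS and 0.793% to 7.47% under HS. A 35S NS peak of 5552 bp (chr3:8917886-8923437) spanned MBF1C and its neighbour ALDH2C4, an aldehyde dehydrogenase gene, with a fold enrichment of 2.25 and a summit 743 bp after the MBF1C start. A second 35S NS peak before the gene was 1520 bp wide with a fold enrichment of 1.43. The 35S HS peak that matched the wide NS peak was 5348 bp wide with a fold enrichment of 1.26, and its summit lay 861 bp after the start. The summits of the wide peaks were 143 bp (35S NS) and 25 bp (35S HS) from the NP NS summit in the coding sequence, so that 3 of the 4 lists placed a summit there too. The stronger 35S HS peak was a narrower one of 711 bp, 976 bp before the start, with a fold enrichment of 1.53. At the wide 35S HS peak the caller's scaled pileup was 156 over a background of 123, where the lowest background of any peak in that list was 46.5.

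DREB2C was the 1 gene of the 6 with an NP peak under HS and none under NS. DREB2C is on the reverse strand of chromosome 2 at chr2:16848160-16850494, and like DREB2A its product binds the DRE and is linked to heat. Its NP HS peak was narrow, 218 bp (chr2:16850531-16850748), with a summit 97 bp before the gene start. The promoter within 50 bp of this summit (chr2:16850541-16850641, reverse strand, outside annotated UTRs) is shown because it held no HSE, exact or with 1 mismatch. In capitals is the one searched motif in it, a UPRE (an element known from genes of the unfolded protein response, searched as TGACGTGA and TGACGTGG on both strands).
DREB2C summit: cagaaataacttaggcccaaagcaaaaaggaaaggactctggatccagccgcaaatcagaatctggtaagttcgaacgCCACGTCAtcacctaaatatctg
The centre of the element lay 31.5 bp from the summit. A UPRE was found in 2.16% of all promoters over the window from 250 bp before to 50 bp after the start and within 50 bp of 2.30% of main-set NP HS summits. These letters partly overlap the G-box core, but no complete G-box (CACGTG) is in the stretch.

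The NP HS pileup at DREB2C was 17 over a background of 3.59, the lowest in its list, a fold enrichment of 3.92 with a −log10 q of 4.46. It ranked 770 of 1219, in the lower part of the list. The HS pool was smaller than the NS pool, with 0.360 times its fragments, and scaled to the NS depth the pileup of 17 would be 47.3. In the NP NS list the lowest pileup of any peak was 24 and the median was 43, and the nearest NS peak was 24582 bp from DREB2C. The lists give pileups at called peaks only, so the NS pileup at DREB2C is not known. A difference between the conditions there was therefore not tested.

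The same promoter was listed in 35S NS with a 304 bp peak (chr2:16850484-16850787) whose summit was 38 bp from the NP HS summit. Its pileup was 179 and its fold enrichment 1.93, just under the limit of 2, with a −log10 q of 13.7. No 35S HS peak was listed, and the nearest was 14461 bp away. The next gene upstream, AT2G40350 (DREB2H), ends within 1 kb of the NP HS peak, which therefore also counts as a peak of that gene.

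**Figure D2:**
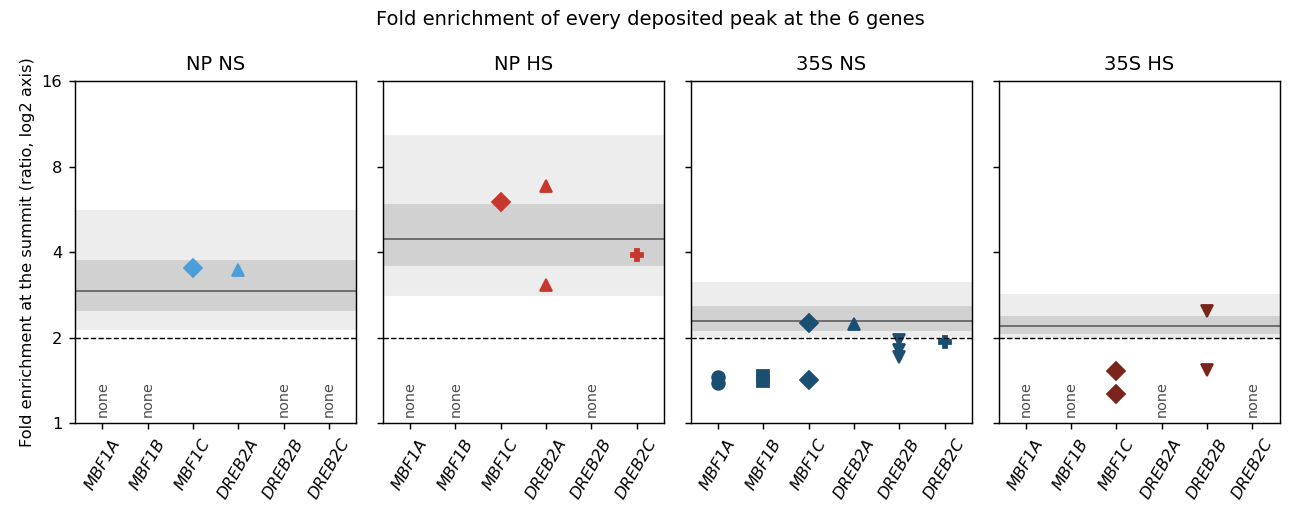
Fold enrichment at the summit (ratio, log2 axis) of every deposited peak at the 6 genes in each list, 1 pooled value per point, over the main-set median (line), the 25th to 75th percentiles (dark band) and the 5th to 95th percentiles (light band). The NP points lie between 3.06 and 6.81, while the 35S points lie between 1.26 and 2.48, with 3 of them above the limit of 2 (dashed).

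DREB2B, the closest relative of DREB2A, had peaks in the 35S lists alone, where 75.1% (NS) and 52.1% (HS) of all genes had a deposited peak. DREB2B is on the forward strand of chromosome 3 at chr3:3455355-3457342, and the nearest NP peaks were 3400 bp (NS) and 14289 bp (HS) away. The 35S NS list had 3 peaks at DREB2B, with fold enrichments of 1.81, 1.97 and 1.72, all below the limit. The first of these had its summit 1282 bp before the gene start and 88 bp from the start of RLP34, a receptor-like protein gene. The one at the DREB2B start (chr3:3455162-3455625) had its summit 27 bp after it.

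The 35S HS list had 2 peaks at DREB2B. The one at the start was 270 bp wide with its summit 10 bp before it and a fold enrichment of 1.54. The other was 1620 bp wide (chr3:3456071-3457690) with its summit in the coding sequence 1366 bp after the start, a fold enrichment of 2.48 and a −log10 q of 14.3. It ranked 221 of the 1408 main-set peaks. The gene TBL32 overlaps DREB2B there on the opposite strand, and the summit is inside both. The matching NS peak, with its summit 46 bp away, had a fold enrichment of 1.72.

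The DREB2B promoter had no HSE within 1 kb upstream even with 1 mismatch, and the searched motif nearest to its start was a G-box, which many bZIP and bHLH factors bind. The stretch chr3:3455160-3455289 (forward strand, outside annotated UTRs) is shown as the promoter without an NP peak to set against that of DREB2A, with the G-box in capitals.
DREB2B G-box: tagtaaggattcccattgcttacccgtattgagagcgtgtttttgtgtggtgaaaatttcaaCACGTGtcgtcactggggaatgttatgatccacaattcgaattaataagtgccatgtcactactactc
A G-box was found in 7.68% of all promoters over the window from 250 bp before to 50 bp after the start. This one lay inside both 35S peaks at the start, with its centre 157.5 bp from the NS summit and 120.5 bp from the HS summit.

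MBF1A and MBF1B had weak 35S NS peaks and no peak in the other 3 lists. MBF1A is at chr2:17774832-17776320 and MBF1B at chr3:21707247-21708972, both on the forward strand. At MBF1A the 2 peaks had fold enrichments of 1.38 and 1.46, and both summits were outside the gene, the first of them 24 bp from the start of AT2G42670 and the second nearest, at 951 bp, to that of the antisense RNA gene AT2G09395. At MBF1B the 2 peaks had fold enrichments of 1.41 and 1.47, with summits 273 bp before the start and at the 3′ end, 208 bp from the start of AT3G58690. All 4 values were below the limit of 2. The nearest NP peaks were 22443 bp (HS) and 43015 bp (NS) from MBF1A, and over 100 kb from MBF1B in both conditions. Neither gene held an exact HSE, and with 1 mismatch MBF1A held 0 and MBF1B 2 elements within 1 kb.

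The comparison of NS with HS at the genes bound in both NP lists asks whether enrichment rose with heat. The highest fold enrichment per gene went from 3.51 to 6.02 at MBF1C and from 3.45 to 6.81 at DREB2A. On the log2 scale these differences were 0.78 and 0.98. The MBF1C values come from summits 517 bp apart, in the coding sequence under NS and in the 5′ UTR under HS. The difference at MBF1C is therefore not a change at a single site. Over all 580 protein-coding genes with a deposited peak in both NP lists the median was 0.78, and 92.1% of genes had a difference above 0. Of those genes 49.5% lay below MBF1C and 63.3% below DREB2A, so that both genes were near the middle of the list. A peak counts for every gene within 1 kb of it, so the 580 genes do not stand for as many separate peaks. MSH7 and ALDH2C4 had the same values as MBF1C, and the neighbouring gene AT5G05400 had the same values as DREB2A.

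Pileup per 1000000 treatment fragments, which does not use the controls, gave the same order of conditions. It was 6.04 under NS and 11.5 under HS at MBF1C, a log2 difference of 0.93. At DREB2A it was 8.55 and 14.8, a log2 difference of 0.79. The median over the 580 genes was 0.43, and 72.8% of genes lay below MBF1C and 66.6% below DREB2A. The NP HS pool had 0.360 times the fragments of the NP NS pool. The lowest pileup of any listed peak was 24 under NS and 12 under HS. The 5th percentile of main-set fold enrichment was 2.15 under NS and 2.83 under HS. Whether these differences between the lists had a part in the rise was not tested.

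**Figure D3:**
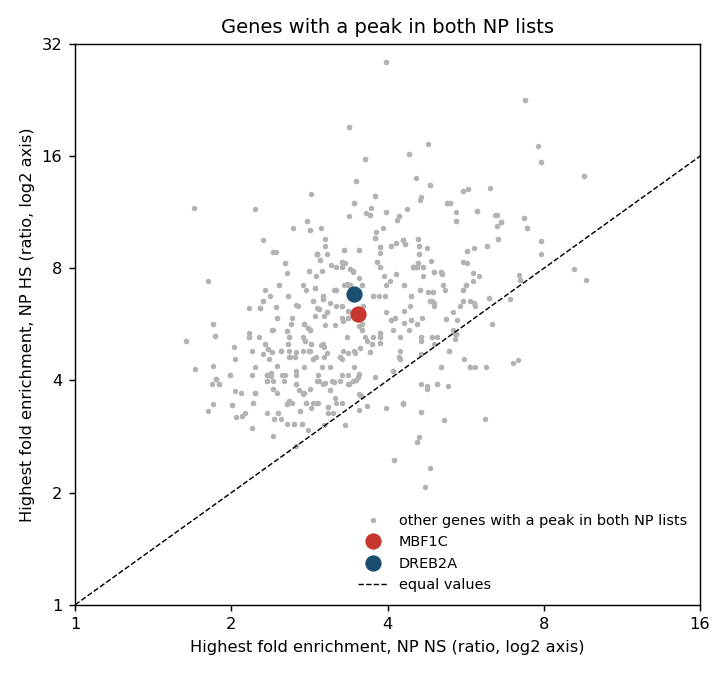
Highest NP fold enrichment per gene under NS (x axis) and HS (y axis), both ratios on log2 axes, for the 580 protein-coding genes with a deposited peak in both lists, with equal values on the dashed line. MBF1C (3.51, 6.02) and DREB2A (3.45, 6.81) lie above the line, within the cloud of the other genes.

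In the 35S lists MBF1C and DREB2B could be compared in the same way. At MBF1C the highest fold enrichment was 2.25 under NS and 1.53 under HS, a log2 difference of −0.56, but the NS value is from the wide peak over the gene and the HS value from the narrower peak before it. Between the matched wide peaks, whose summits were 118 bp apart, the log2 difference was −0.83 in fold enrichment and 0.26 in pileup per 1000000 fragments (13.4 and 16.0). Between the matched peaks before the gene the log2 differences were 0.10 and 0.12. The sign at MBF1C thus depended on the peak and, at the wide peaks, on the measure. At DREB2B the highest fold enrichment was 1.97 under NS, at the gene start, and 2.48 under HS, in the coding sequence 1339 bp away, a log2 difference of 0.33. Between the matched peaks in the coding sequence it was 0.53 in fold enrichment and 0.57 in pileup per 1000000 fragments. Both of these peaks had the lowest background of their list (92.3 and 46.5), so that these measures are not independent here. The median over the 14057 genes with a peak in both 35S lists was −0.28 in fold enrichment, with 21.4% of genes above 0. DREB2B was higher than 96.0% of those genes, and MBF1C than 25.7%. By the highest pileup per 1000000 fragments the median was −0.21, and DREB2B was higher than 95.3% and MBF1C than 92.0% of the genes.

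The NP peaks also spread further over MBF1C and DREB2A under HS. The share of MBF1C under NP peaks was 28.3% under NS and 61.1% under HS. For DREB2A it was 20.4% and 69.2%. These HS shares were higher than those of 99.8% and 99.9% of all protein-coding genes, of which 96.7% had no cover by an NP HS peak. The main HS peaks at both genes were wide for their list, with 95.2% of main-set NP HS peaks narrower at MBF1C and 97.8% at DREB2A, while 14.6% were narrower at DREB2C. The study set aside wide peaks along gene bodies with high transcription, by a rule whose width is not stated. That rule was not applied here, transcription is not measured in these lists, and its part in the wider HS peaks was not tested.

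**Figure D4:**
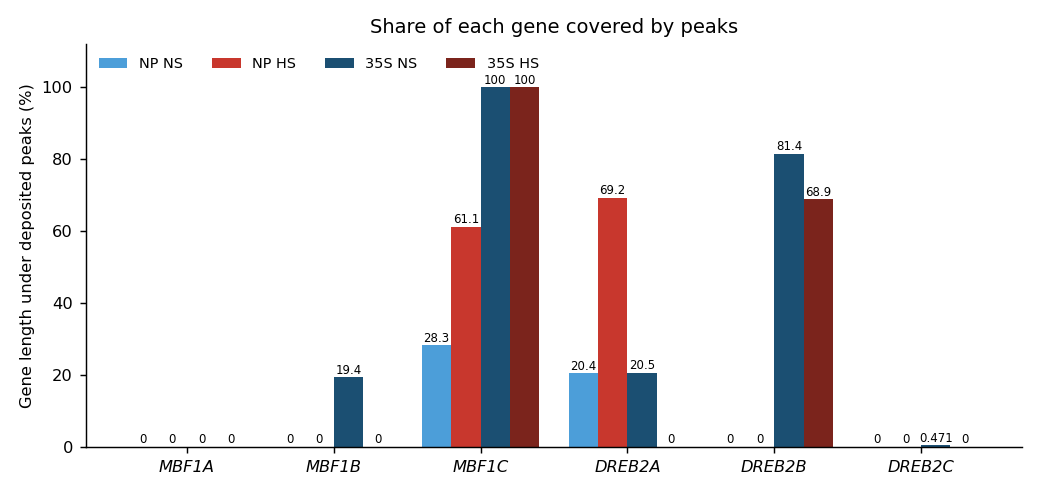
Share of each gene's length (%) under deposited peaks in the 4 lists, 1 bar per list with its value above it. The NP HS bars reach 61.1% at MBF1C and 69.2% at DREB2A and are 0 at the other 4 genes, and the 35S bars reach 100% at MBF1C.

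An exact HSE lay near 1 NP summit of these genes, and near a small share of the summits in the NP lists as a whole. Within 50 bp of the summit an exact HSE was present at 1 of the 2 NP NS peaks of the members, that of DREB2A, and at 0 of the 4 NP HS peaks. Over the main sets the shares were 3.25% for NP NS and 5.09% for NP HS. Of all promoters, read over the longer window from 250 bp before to 50 bp after the start, 0.481% held one. The DREB2A NP HS summit missed the element because it lay 71 bp from it, inside the same peak.

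Other genes of the same pathways were read in 4 lists of 26 genes in all. These too were chosen with earlier results of these data known, which limits what their shares can show. Of these, main-set peaks of NP plants lay at 4 (15.4%) under NS and 6 (23.1%) under HS, beside 4.19% and 5.69% of all genes. For 35S plants the counts were 14 (53.8%) under NS and 4 (15.4%) under HS, beside 38.7% and 19.7% of all genes. The 14 include RCD1 and MED25 through peaks 5098380 bp and 584843 bp wide, with summits far outside these genes. Among 5 further DREB2 genes, DREB2E (AT2G38340, named DREB19 in RefSeq) had an NP HS peak of 5.93-fold 309 bp after its start and no NP NS peak. In 35S plants DREB2E had a main-set peak under both conditions. These were 2.55-fold under NS, 302 bp after the start, and 2.04-fold under HS, 366 bp after it. DREB2H shared the DREB2C peak. Among 10 partners, repressors and turnover factors of DREB2A, RCD1, which binds the DREB2A protein, had 4 NP HS main-set peaks and no NP NS peak. The highest had a fold enrichment of 4.14 and a summit 4704 bp after the start of RCD1. The study's filters on pericentromeric peaks and on wide gene-body peaks were not applied to these.

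Of 7 genes placed downstream of these regulators, 3 had an NP main-set peak under NS and 3 under HS, where 4.19% and 5.69% of all genes had one. HSFB2B, a class B heat shock factor, had fold enrichments of 5.59 under NS and 8.34 under HS, above those of MBF1C and DREB2A in the same lists. LEA14, a late embryogenesis abundant protein gene, had 2.50 and 4.80. Its NS summit lay 1450 bp after its start, beyond its end, and its HS summit 902 bp after the start. The adjacent gene AT1G01460 had the same values, so these peaks cannot be assigned to LEA14 alone. Of the NP lists HSFB2A was in HS alone, at 3.99, with its summit 1678 bp after its start, toward its 3′ end. In 35S plants HSFB2A had main-set peaks under NS (2.68-fold, summit at 1576 bp) and HS (2.18-fold, summit at 1164 bp). HSFA3, a heat shock factor gene that DREB2A and DREB2C activate, was in NS alone of the NP lists, at 2.58. Its summit lay 3476 bp after its start and so beyond its end. Of the 4 CBF/DREB1 genes, which encode cold-response factors, CBF2 had an NP NS peak of 2.50-fold and 0 had an NP HS peak. In 35S NS all 4 had a main-set peak, with highest fold enrichments of 2.08 to 3.04, where 38.7% of all genes had one. In 35S HS 0 had one, where 19.7% of all genes did. CBF1, CBF2 and CBF3 lie close together (chr4:13015250-13022996). The highest 35S NS peaks counted for CBF1 and CBF3 had summits 1748 and 1465 bp after their starts, beyond the ends of these genes.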

How the data were processed

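The authors demultiplexed reads with CASAVA 1.8.2, aligned them to TAIR10 with GSNAP, removed duplicates with SAMtools and called peaks on pooled libraries. Per the file headers, MACS2 2.0.10.20131028 was used in paired-end mode at a q-value limit of 0.05. The deposited values are the summit pileup (fragment coverage), the fold enrichment (a ratio over background) and the −log10 of the q-value. Samples were grouped by their labels. Here peaks on chromosomes 1 to 5 with a fold enrichment of at least 2 formed the main set, without the pericentromere filter of the study. The 6 genes had 129 (MBF1C) to 160 (DREB2A) protein-coding starts within 250 kb, beside a median of 136 over genes. Background at the summit was recovered as (pileup + 1)/fold enrichment − 1. The 35S HS pileups, scaled by 0.721 by the caller, were rescaled for values per 1000000 fragments. A peak was assigned by at least 1 bp of overlap with the gene or 1000 bp of it. Genes, transcripts and sequences came from the RefSeq annotation of the same assembly. Scripts used Python 3.11.15, numpy 2.4.6, pandas 2.3.3 and matplotlib 3.10.9, and were tested on simulated data. All 6 genes, genes whose start was nearest to a member's peak, and listed pathway genes with an NP peak were named. The members and gene lists were chosen with earlier results of these data known. Alternatives covered the fold, q, window, overlap and width limits, the measure of change and the HSE definition. The labelled tissue could not be checked from peak lists.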

Additional observations from a re-analysis of the deposited data

Results flagged for a closer look

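At MBF1C the change in highest fold enrichment from NS to HS had opposite signs in the constructs, with a log2 difference of 0.78 in NP:HSFA1b and −0.56 in 35S:HSFA1b. The gap of 1.34 between them rests on 1 pooled value per condition and construct and was not tested. The constructs differ in promoter, tag, antibody and depth, which cannot be told apart here. The NP value sets NS and HS summits against each other that were 517 bp apart. The 35S value sets a wide NS peak over the gene against a narrower HS peak before it. Between the matched wide peaks the 35S change was −0.83 in fold enrichment and 0.26 in pileup per fragment, and between the matched peaks before the gene it was 0.10 in fold enrichment.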

How the results depend on the processing

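The NP counts of 2 (NS) and 3 (HS) genes with a peak were unchanged under the 7 alternatives run on fold, q, window, overlap and width limits. Without peaks wider than 1000 bp, however, the 1236 bp NP HS peak at the DREB2A promoter was lost. DREB2A then stayed in the HS count only through the 491 bp peak at its far end, which also lies in AT5G05420. The 35S NS count of 2 became 6 with no fold limit, 0 at a fold enrichment of at least 3 and 0 without peaks wider than 1000 bp. The 35S HS count of 1 became 2, 0 and 0 under the same settings. The median log2 change of the members in NP:HSFA1b was 0.88 by fold enrichment and 0.86 by pileup per fragment. In 35S:HSFA1b it was −0.11, and it reversed to 0.31 by pileup per fragment and to 0.32 with the nearest NS summit. MBF1C reversed from −0.56 to 0.26 (the wide peaks over the gene) and 0.10 (the peaks before it) in these, while the fold enrichment of the matched wide peaks gave −0.83. DREB2B moved from 0.33 to 0.36 and 0.53. NP NS summits of members with an HSE within 50 bp went from 1 to 2 when 2 repeats were enough, and NP HS summits from 0 to 1 within 100 bp or with 1 mismatch. No paired analysis was possible because each list is 1 call on pooled libraries, and for the same reason no replicate could be left out. The absence of a peak in a list says only that the pooled depth gave no call.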
